A study of Mus musculus with 35 samples.

Results

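Lymphoid tumours of mice lacking both Lig4 and p53 were compared with normal pre-B cells, using the 9 arrays that the labels assign to these groups (6 tumours and 3 pre-B samples) out of 35 in the series. The tumour samples carried the Lig4/p53 double knock-out genotype, and the labels give their cell type only as lymphoid tumour, their tissue as tumour, and their strain by a reference to the mouse line. The tumours were not described as sorted. The pre-B cells were purified from wild-type bone marrow of strain 129 as B220-positive, CD43-low, IgM-negative cells. No age was given for either group, and nothing states that the samples came from separate mice. The p-values thus measure only the spread between samples within groups, pooled for each gene over all 35 arrays of the series. The other groups used below were 4 lymphoid tumours of Bcl6 knock-in mice, 3 labelled as from Myc/Bcl6 dual-transgenic mice, and 3 samples of wild-type pro-B cells, sorted from bone marrow of strains 129 and B6 as B220-positive, IgM-negative cells with high CD43. Every sample was measured on an Affymetrix Mouse 430A2 array, and all values are the authors' log2 probe set intensities, 1 probe set for each of 12394 genes. The targeted genes Trp53 and Lig4 were not analysed here, so the genotype labels of the tumours were not checked against them.

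Lig4 is the ligase that seals DNA ends in non-homologous end joining, the pathway that completes V(D)J recombination of the antigen receptor genes. Cells that cannot join these breaks normally stop or die through p53, and mice without both proteins are known for early B-lineage lymphomas in which Myc is often joined to the heavy chain locus and amplified. Pre-B cells are the normal stage that follows heavy chain rearrangement: they carry a pre-B receptor of the heavy chain and the surrogate light chain, divide in response to interleukin 7, and then rearrange their light chain genes.

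The arrays of both groups differed in more than the cells. The mean log2 intensity of 18S rRNA probe sets was 4.15 to 6.15 in Lig4/p53 tumours and 10.06 to 10.96 in pre-B samples, and the excess of 3' over 5' control signal for Actb and Gapdh, a sign of shortened RNA, was 2.25 to 3.64 log2 units in tumours, against 1.25 to 2.27 in pre-B samples. Pre-B replicate 2 stood apart: its interquartile range was 2.03 on the log2 scale, against 3.71 to 4.23 in the other 8 arrays, and across genes it correlated at 0.578 and 0.588 with pre-B replicates 1 and 3, which correlated with each other at 0.976. The 6 tumours correlated among themselves at 0.948 to 0.991. Each comparison with pre-B cells was therefore fitted with and without pre-B replicate 2. A gene is said to rise or fall only where the adjusted p was under 0.05 in the same direction in both fits, and its difference without that array is given where it was over 1.5 times larger or smaller. Genotype, malignancy, sorting, strain and RNA handling cannot be told apart in this comparison: with 18S rRNA as a covariate 3 genes stayed called, namely Bpgm and Cd177 (lower in tumours) and Nav2 (higher).

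With all arrays 1826 genes were higher in the tumours (14.7% of those tested) and 1540 were lower (12.4%). Of these, 851 rose (6.87% of all genes) and 699 fell (5.64%) in both fits, and for 1259 of these 1550 genes the 6 tumour values did not overlap the 3 pre-B values (10.2% of all genes). The median difference over all genes was -0.21 on the log2 scale, -0.11 without pre-B replicate 2 and -0.06 after a renewed quantile normalization.

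**Figure D1:**
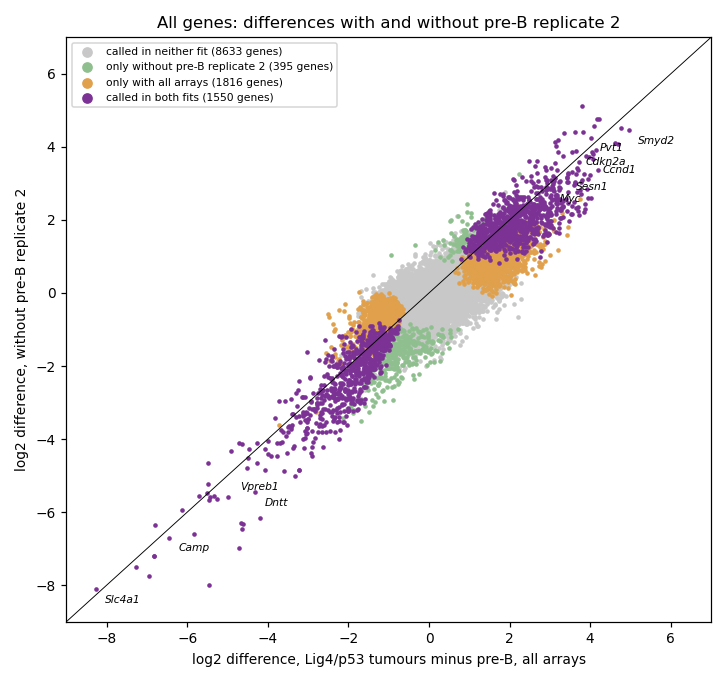
Each point is 1 of 12394 genes, placed by its log2 difference (Lig4/p53 tumours minus pre-B) with all arrays on the horizontal axis and without pre-B replicate 2 on the vertical axis; colours give the call at an adjusted p under 0.05 and the line marks equal values. The 1550 genes called in both fits lie near the line at both ends, with Slc4a1 lowest on the horizontal axis.

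Of the 4 genes that mark the comparison, Myc rose, Vpreb3 fell, and Il7r and Sox4 did not pass. Myc, the transcription factor that drives growth and division, ran from 10.10 through a median of 11.03 to 11.31 in Lig4/p53 tumours, against 8.16, 7.60 and 7.96 in the pre-B replicates. Every tumour lay above every pre-B sample, and the log2 difference was 3.01 ± 0.67 (SE, adjusted p = 0.00131), or 2.85 without pre-B replicate 2 (adjusted p = 0.0102). Vpreb3, a chaperone-like protein bound to heavy and light chains in early B cells, fell: tumours ran from 8.06 through 8.76 to 9.52, against 11.61, 10.49 and 11.68 in pre-B cells (-2.47 ± 0.64, adjusted p = 0.00498). Il7r, the interleukin 7 receptor chain, read 9.65, 7.27, 9.28, 10.75, 10.52 and 8.93 in the 6 tumours, against 9.24, 6.74 and 8.20 in pre-B cells. The groups overlapped and the difference of 1.34 ± 0.55 did not pass (adjusted p = 0.0675). Sox4, a transcription factor needed for early B-cell growth, ran from 8.12 through 9.06 to 9.19 in tumours, against 9.80, 7.64 and 10.53 in pre-B cells (-0.44 ± 0.75, adjusted p = 0.666).

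All 4 of these genes were higher in Lig4/p53 tumours than in the other tumours of the series, by 5.00 for Myc, 4.08 for Vpreb3, 3.74 for Il7r and 5.32 for Sox4 on the log2 scale (largest adjusted p of the 4, 2.5e-07). In that contrast 3079 genes (24.8%) were higher and 2909 (23.5%) lower in Lig4/p53 tumours than in the mean of the Bcl6 tumours and those labelled Myc/Bcl6. The log2 interquartile range was 2.15 to 3.78 in Bcl6 tumours and 2.33 to 2.85 in those labelled Myc/Bcl6, against 3.74 to 4.23. Their 3' excess was 3.65 to 4.60 and 3.23 to 4.69, against 2.25 to 3.64. Of 20 stromal and endothelial markers 17 were lower and 1 higher in Lig4/p53 tumours. Of 19 macrophage and dendritic markers 12 were lower and 0 higher. The part of RNA quality and other cells in this contrast was not tested. Myc itself was 5.77 to 7.19 in the Bcl6 tumours and 4.93 to 5.41 in the tumours labelled Myc/Bcl6. Whether this mouse probe set reads the Myc transgene of that label was not tested, so the values do not check the label. The antigen receptor chains and Ebf1 were above the median probe set of these arrays (4.67 to 5.09) in both groups. Of the chains, Cd79b ran from 10.002 through 10.66 to 10.92 in tumours, against 11.26, 10.26 and 11.09. Its partner Cd79a was 9.73 to 11.03 in tumours and 11.23 to 11.53 in pre-B cells, called with all arrays (-1.16, adjusted p = 0.0297) and not without pre-B replicate 2 (adjusted p = 0.112). Ebf1, a founding transcription factor of the lineage, lay between 8.45 and 8.73 in 5 tumours and at 6.12 in tumour replicate 3, against 9.44, 8.44 and 9.16 in pre-B cells. The probe set of Pax5, which commits cells to the lineage, read low in both groups (3.00 to 3.98 in tumours and 4.27 to 5.02 in pre-B cells), below or near that median. It was called with all arrays only (-1.13), and how well it reads Pax5 was not tested.

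**Figure D2:**
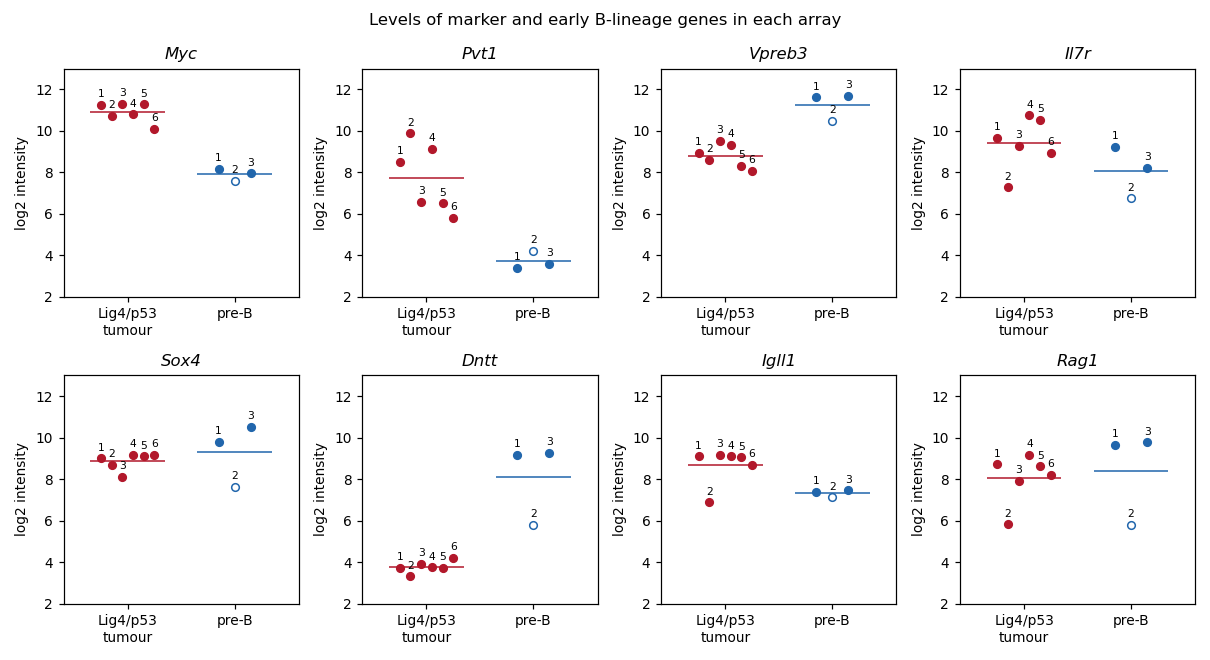
Log2 intensity of 8 genes in each array; red points are the 6 Lig4/p53 tumours and blue points the 3 pre-B samples, numbered by replicate, with a line at each group mean and pre-B replicate 2 as an open circle. Myc and Pvt1 are higher and Dntt and Vpreb3 lower in all 6 tumours than in all pre-B samples, while Il7r, Sox4, Igll1 and Rag1 overlap.

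Of the 6 measured genes of the surrogate light chain and the V(D)J recombination machinery, 4 fell (66.7%, against 5.64% of all genes) and 0 rose. Dntt, the terminal transferase that adds bases at V(D)J joins, was near the bottom of the scale in every tumour (3.32 through 3.75 to 4.21), against 9.19, 5.80 and 9.27 in pre-B cells. Its difference was -4.31 ± 0.55 (adjusted p = 1.36e-06), and pro-B cells held 10.9 to 12.1. Vpreb1, a surrogate light chain protein, read 3.24 through 4.05 to 5.33 in tumours, against 9.33, 4.16 and 9.16 in pre-B cells (-3.32 ± 0.69, adjusted p = 0.000629). Pre-B replicate 2 alone overlapped the tumours, and without it the difference was -5.01 (adjusted p = 7.05e-08). Igll1, the partner of Vpreb1 in the surrogate light chain, went the other way without passing: tumours ran from 6.88 through 9.07 to 9.16, against 7.38, 7.12 and 7.47 in pre-B cells (1.34 ± 0.53, adjusted p = 0.0585). The recombinase subunits also gave unlike calls. Rag1 was 5.83 through 8.41 to 9.18 in tumours, against 9.67, 5.81 and 9.78 (adjusted p = 0.747). Rag2 was 3.29 through 5.41 to 5.92 in tumours, against 7.67, 6.21 and 5.60 (-1.36 ± 0.43, adjusted p = 0.0195). The Rag2 call was lost without pre-B replicate 1 (-0.77) or tumour replicate 2 (-0.99), in each fit on the 9 compared arrays alone and with the 3' minus 5' difference as a covariate.

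Among 14 surface and signalling genes of early B cells, 1 rose and 2 fell. Enpep, the BP-1 peptidase that marks late pro-B and pre-B cells, was 7.81 through 8.34 to 8.87 in tumours, against 7.29, 3.54 and 6.44 in pre-B cells (2.58 ± 0.56, adjusted p = 0.00103; without pre-B replicate 2, 1.47, adjusted p = 0.0499). Cd9, a tetraspanin, fell to 3.51 through 4.22 to 4.80 in tumours, against 8.30, 10.12 and 8.27. Il2ra (CD25), a surface marker by which small pre-B cells are recognised, fell to 3.04 through 4.16 to 5.27 in tumours, against 5.91, 5.97 and 6.79 in pre-B cells (-2.16 ± 0.41, adjusted p = 0.000273). The tumours thus held Enpep above all pre-B samples and Il2ra below all of them. Kit, the receptor of early progenitors, was low in both groups (1.90 to 2.90 in tumours and 3.08 to 3.87 in pre-B cells).

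Of 19 immunoglobulin segments with 1 symbol, 7 fell (36.8%, against 5.64% of all genes) and 1 rose, with a median difference of -1.23. Igk-V21, a kappa variable segment, ran from 3.71 through 3.88 to 4.20 in tumours, against 9.95, 10.45 and 9.78 in pre-B cells (-6.13 ± 0.54, adjusted p = 3.07e-09). Igkv9-120 read 2.33 through 2.81 to 2.94 in tumours, against 8.59, 7.88 and 8.10 (-5.44 ± 0.44, adjusted p = 3.86e-10, or -3.24 with the mean of its probe sets). Igkv19-93 differed by -2.89 ± 0.48 (-1.89 with the mean of its probe sets) and Igkv4-68 by -1.98 ± 0.35. For these 4 kappa segments the groups did not overlap. Igha, the constant region of IgA that plasma cells make, was 3.08 through 3.82 to 5.76 in tumours, against 11.35, 10.27 and 11.40 in pre-B samples. The heavy chain segment Ighv14-2 was the 1 that rose (2.09 ± 0.59, adjusted p = 0.00921), with 9.68 through 11.30 to 11.81 in tumours, against 8.46, 9.91 and 8.53 in pre-B cells. Ighm, the mu chain whose surface form the sort excluded, did not pass (12.01 to 13.43 in tumours, 11.10 to 12.25 in pre-B cells, adjusted p = 0.465), but its 11 probe sets disagreed: their mean gave -2.32 (adjusted p = 0.0109). Variable segments share sequence, so a probe set may read several of them. The summed level of 11 plasma cell genes moved with these segments (log2 of 10.61 to 11.35 in tumours, 12.38, 12.34 and 12.52 in pre-B samples), and its part was not tested.

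Genes of ribosome biogenesis and Myc-linked growth were higher in the tumours as a group. Of 28 measured, 14 rose and 0 fell in both fits (19 were higher with all arrays), with a median difference of 2.204, or 1.66 without pre-B replicate 2, against -0.21 and -0.11 over all genes. Pus7, which makes pseudouridine in RNA, ran from 8.17 through 8.99 to 9.30 in tumours, against 6.76, 5.18 and 4.84 in pre-B cells (3.26 ± 0.46, adjusted p = 5.58e-06). Srm, the spermidine synthase, was 9.66 through 10.44 to 10.74 in tumours, against 7.03, 5.89 and 7.19 (3.65 ± 0.55, adjusted p = 1.7e-05). Every tumour exceeded every pre-B sample for both genes. Nop56, a core protein of the particles that methylate ribosomal RNA, was 11.52 through 12.10 to 12.16 in tumours, against 9.71, 9.77 and 9.45 (2.34 ± 0.36, adjusted p = 2.14e-05). Here pre-B replicate 2 matched the other pre-B replicates. Ldha, the lactate dehydrogenase of glycolysis, was 11.03 through 11.32 to 11.96 in tumours, against 9.42, 8.52 and 9.31 (2.29 ± 0.37, adjusted p = 4.52e-05). Not every member moved: Cdk4, a G1 kinase and known Myc target, was 8.96 through 9.80 to 10.17 in tumours, against 9.81, 9.74 and 9.86 in pre-B cells (-0.05 ± 0.41, adjusted p = 0.933).

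Myc binds DNA with its partner Max at the letters CACGTG, which read the same on both strands. These letters were searched in RefSeq promoter windows of GRCm38.p6, 250 bases before to 50 after each gene start. They occurred in 8.09% of the 27025 genes in the promoter table and in 10.8% of the 9888 measured genes found there. The share was 17.6% of the 678 genes with a window that rose, and 8.17% of the 563 that fell. In the growth list 8 of 23 genes with a window held a match (34.8%), among them 6 of the 12 that rose and 2 of the 11 others. A match describes the sequence and is not evidence of binding. The 200 bases before the start are shown for 3 members that rose (Ldha, Nop2, which methylates ribosomal RNA, and Hspd1, the mitochondrial chaperonin) and for Cdk4, which did not pass despite 4 matches; capitals mark each CACGTG.
Ldha, chr7:46845604-46845803, plus strand: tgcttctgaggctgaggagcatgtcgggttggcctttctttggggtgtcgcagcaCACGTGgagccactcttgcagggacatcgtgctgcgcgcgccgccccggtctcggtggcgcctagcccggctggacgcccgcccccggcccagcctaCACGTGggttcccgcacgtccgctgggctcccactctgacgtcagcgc
Nop2, chr6:125131683-125131882, plus strand: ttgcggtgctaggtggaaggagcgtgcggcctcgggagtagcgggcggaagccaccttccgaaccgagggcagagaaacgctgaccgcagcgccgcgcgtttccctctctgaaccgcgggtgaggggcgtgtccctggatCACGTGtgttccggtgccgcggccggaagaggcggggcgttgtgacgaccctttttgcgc
Hspd1, chr1:55088244-55088443, minus strand: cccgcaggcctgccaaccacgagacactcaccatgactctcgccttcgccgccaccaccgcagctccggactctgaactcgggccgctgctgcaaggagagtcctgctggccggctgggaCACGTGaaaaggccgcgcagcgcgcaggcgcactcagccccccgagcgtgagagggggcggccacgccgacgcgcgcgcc
Cdk4, chr10:127063335-127063534, plus strand: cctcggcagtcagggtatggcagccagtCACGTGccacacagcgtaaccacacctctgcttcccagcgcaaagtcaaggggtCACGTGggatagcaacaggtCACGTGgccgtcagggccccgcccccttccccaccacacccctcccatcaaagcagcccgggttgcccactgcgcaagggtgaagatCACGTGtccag
The 2 matches of Ldha start at -145 and -48 from the gene start, that of Nop2 at -60 and that of Hspd1 at -80, while those of Cdk4 start at -172, -118, -98 and -11. Nop2 was 8.39 through 9.14 to 9.58 in tumours, against 7.63, 4.06 and 6.62 in pre-B cells (2.95 ± 0.51, adjusted p = 8.43e-05; without pre-B replicate 2, 1.93, adjusted p = 0.00381). Hspd1 was 10.71 through 11.10 to 11.25 in tumours, against 8.86, 5.23 and 9.07 (3.32 ± 0.62, adjusted p = 0.000228; without pre-B replicate 2, 2.07, adjusted p = 0.0114). Both were higher in every tumour than in every pre-B sample, and pre-B replicate 2 was the lowest array.

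Of the 12 measured genes of the Myc network only Myc itself rose in both fits (8.33%, near the 6.87% of all genes), and 0 fell. Mnt, a Max-binding repressor, was 7.51 to 8.44 in tumours and 7.21, 3.74 and 6.88 in pre-B cells, called with all arrays (2.14, adjusted p = 0.0058) and not without pre-B replicate 2 (adjusted p = 0.206). Mxd1, which opposes Myc, was -1.64 with all arrays (adjusted p = 0.00643), and this call too was lost without pre-B replicate 2. Mycn, a related gene, ran from 4.87 to 5.16 in 5 tumours and stood at 6.56 in tumour replicate 6, against 5.16, 5.63 and 4.64 in pre-B cells.

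Next to Myc on chromosome 15, Pvt1 rose as well. Pvt1 is a long non-coding RNA gene that lies beside Myc and is often amplified with it. It read 8.50, 9.87, 6.59, 9.14, 6.50 and 5.81 in tumour replicates 1 to 6, against 3.39, 4.21 and 3.58 in pre-B cells (4.01 ± 0.71, adjusted p = 0.000111, or 2.41 with the mean of its probe sets). All tumours were above all pre-B samples, and their SD of 1.65 was larger than that of Myc (0.47). Of the next 3 measured genes on each side in the order of RefSeq GRCm38.p6, Sqle (squalene epoxidase of sterol synthesis) rose by 3.55 ± 0.64 (adjusted p = 0.000136) and Cyrib, a Rac1-binding protein, fell (-1.45 ± 0.30, adjusted p = 0.000734). Nsmce2, Trib1 and Macroh2a3 did not pass (1.18, 0.34 and -0.20).

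Of 21 G1 cyclins, kinases and inhibitors, which time entry into S phase, 3 rose and 4 fell in both fits, and 14 were not called even with all arrays. Ccnd1, cyclin D1, was 8.61 through 9.56 to 10.38 in tumours, against 5.68, 4.67 and 6.07 in pre-B cells (4.07 ± 0.57, adjusted p = 5.82e-06, or 2.2 with the mean of its probe sets). Ccnd3, the D-type cyclin that dividing pre-B cells need, fell to 5.33 through 6.03 to 6.86 in tumours, against 9.80, 7.05 and 9.45 (-2.72 ± 0.53, adjusted p = 0.000346). Cyclin D1 was thus higher and cyclin D3 lower in each of the 6 tumours than in each pre-B sample. Ccnd2, cyclin D2, varied widely: 7.47, 8.84, 6.65, 8.46, 7.96 and 10.81 in tumours, against 7.56, 6.70 and 7.49 (1.11 ± 0.74, adjusted p = 0.252).

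Among the inhibitors, Cdkn2a, which encodes p16 and p19Arf, rose to 7.01 through 7.77 to 8.06 in tumours, against 3.48, 4.42 and 3.97 in pre-B cells (3.64 ± 0.36, adjusted p = 2.38e-08). Its single probe set does not say which of its transcripts was present. Cdkn2d, the p19Ink4d inhibitor, fell to 4.25 through 5.06 to 5.34, against 8.84, 7.77 and 9.10 (-3.70 ± 0.42, adjusted p = 2.46e-07). Cdkn2c, the p18 inhibitor, fell to 4.72 through 5.56 to 5.95, against 9.15, 5.30 and 8.88 (-2.29 ± 0.53, adjusted p = 0.00201), with pre-B replicate 2 inside the range of the tumours. Without that array the difference of Cdkn2c was -3.53, and its call was lost in the fit on the 9 compared arrays. The pocket protein Rb1 fell (-1.87 ± 0.51, adjusted p = 0.00725), and Cdc25a, the phosphatase that activates S-phase kinases, rose (2.59 ± 0.45, adjusted p = 0.000104). Cdc25a differed by 1.72 without pre-B replicate 2, and with the mean of its probe sets the call was lost (0.81). Against the other tumours Ccnd1 and Cdkn2a were also higher, by 3.39 and 3.20, while Cdkn2d differed by 0.49 (adjusted p = 0.21).

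Genes of end joining and the response to double-strand breaks were higher more often than lower: of 25 measured, 6 rose and 1 fell (11 and 1 with all arrays), with a median difference of 1.00. The share that rose was above the 6.87% of all genes, and the share that fell was below the 5.64% of all genes. Xrcc5 encodes Ku80, which binds broken ends, and was 7.63 through 8.63 to 8.76 in tumours, against 4.84, 4.66 and 5.63 in pre-B cells (3.44 ± 0.52, adjusted p = 1.8e-05). Prkdc, the DNA-dependent kinase that Ku recruits, was 7.76 through 7.90 to 8.07, against 6.16, 4.04 and 5.95 (2.52 ± 0.54, adjusted p = 0.00083). Both were above the pre-B range in every tumour. Trp53bp1, which protects ends from resection, rose by 2.02 ± 0.31 (adjusted p = 2e-05), Rad50, of the complex that senses breaks, by 2.81 ± 0.44 (adjusted p = 2.6e-05, or 0.99 with the mean of its probe sets), and the checkpoint kinase Atr by 3.43 ± 0.56 (adjusted p = 4.69e-05). The 3 genes did not overlap between groups. Against the other tumours Xrcc5 and Atr were also higher, by 2.80 and 1.24, while Trp53bp1 and Rad50 did not pass (-0.27 and 0.68).

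The p53 target genes gave no common direction. Of 27 measured, 1 rose and 1 fell, so the shares of 3.70% in each direction were below those of all genes, and 22 were not called even with all arrays. The stress gene Sesn1 rose to 8.27 through 8.67 to 9.08 in tumours, against 6.12, 4.81 and 4.92 in pre-B cells (3.42 ± 0.47, adjusted p = 4.24e-06, or 2.23 with the mean of its probe sets). Gadd45a, a growth arrest gene, fell to 5.04 through 5.49 to 5.65, against 9.31, 6.88 and 9.32 (-3.06 ± 0.47, adjusted p = 2.12e-05). Against the other tumours the directions were the opposite: Sesn1 was lower (-1.34, adjusted p = 0.0044) and Gadd45a higher (1.06, adjusted p = 0.0207). Cdkn1a, the p21 inhibitor through which p53 halts the cycle, was 3.94 through 4.96 to 5.99 in tumours, against 6.78, 5.54 and 7.15, and did not pass (-1.51 ± 0.66, adjusted p = 0.0818). Mdm2, the ligase that degrades p53, was 7.76 to 8.42 in tumours and 9.45 to 10.23 in pre-B cells (-1.51 ± 0.51, adjusted p = 0.0276), a call lost without pre-B replicate 2 (adjusted p = 0.162). Perp also lost its call (-1.36, adjusted p = 0.0177 with all arrays, 0.0915 without).

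Of 26 replication and nucleotide genes, 8 were higher with all arrays and 2 in both fits (7.69%, near the 6.87% of all genes), and the median of 0.94 was 0.26 without pre-B replicate 2. Pold1, the catalytic subunit of polymerase delta, was 10.70 through 11.17 to 11.92 in tumours, against 10.21, 6.39 and 10.09 in pre-B cells (2.35 ± 0.50, adjusted p = 0.00083; without pre-B replicate 2, 1.10, adjusted p = 0.0379; 1.55 with the mean of its probe sets). Mcm10, Pola1 and Cdc6, which act at replication origins, were called with all arrays (2.05, 1.82 and 2.31) and not without that array (adjusted p = 0.0725, 0.134 and 0.239). None of 23 mitosis genes passed limma in both fits (3 had an unadjusted p under 0.05 in each fit), and 1, the kinetochore protein Cenpf, was higher with all arrays; in the 4 named here pre-B replicate 2 was below both other pre-B samples. Bub1, a checkpoint kinase, was 7.93 to 9.01 in tumours and 8.21, 3.82 and 8.28 in pre-B cells (adjusted p = 0.0861). Cenpe and Bub1b did not pass either (-1.36 and 0.85). Of 18 glycolysis genes, 4 rose (22.2%, against 6.87% of all genes) and 0 fell. Besides Ldha these included Pgam1, a mutase (1.94 ± 0.44, adjusted p = 0.00153), and Eno3, an enolase (1.96 ± 0.44, adjusted p = 0.00142). The phosphofructokinase Pfkp differed by 2.54, but pre-B replicate 2 at 4.66 was far below replicates 1 and 3 (8.98 and 7.89), and without it the call was lost (adjusted p = 0.0602).

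**Figure D3:**
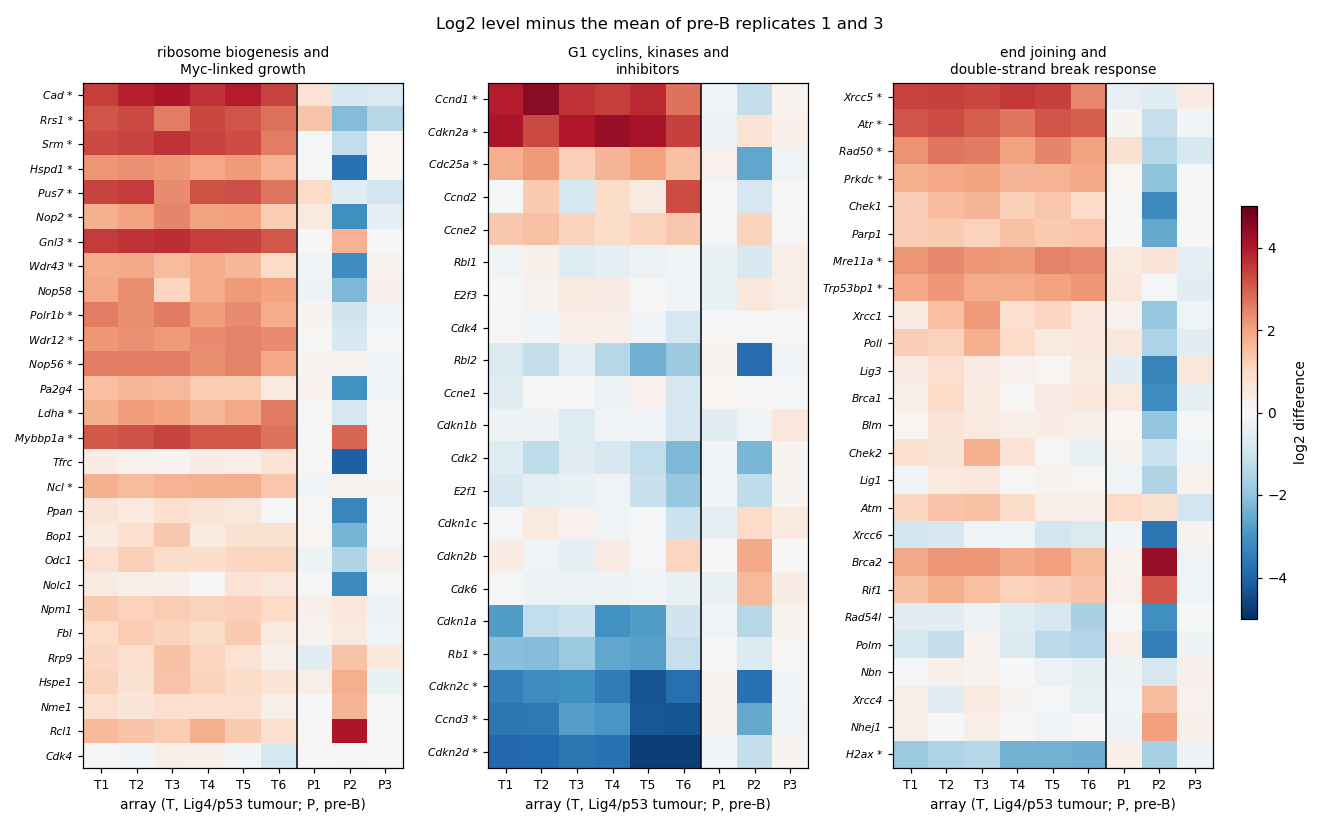
Colour gives each gene's log2 level in an array minus the mean of pre-B replicates 1 and 3, for 6 Lig4/p53 tumours (T1 to T6) left of the line and 3 pre-B samples (P1 to P3) right of it; asterisks mark genes called in both fits. The growth list is red in all 6 tumours for its 14 called genes, the G1 list is split between Ccnd1, Cdkn2a and Cdc25a (red) and Cdkn2d, Ccnd3, Cdkn2c and Rb1 (blue), and P2 departs from P1 and P3 in many rows.

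The 12 largest increases came from varied functions. Smyd2, a lysine methyltransferase, had the largest difference with all arrays: 8.42 through 9.26 to 9.46 in tumours, against 5.09, 3.22 and 4.26 in pre-B cells (4.95 ± 0.59, adjusted p = 5.58e-07). Without pre-B replicate 2 it was 4.46, below Hepacam2 (4.76), Lmo7 (4.75), Wdr77 (4.56) and Bcat1 (4.51). Bcat1, which transaminates branched-chain amino acids, was 9.48 through 9.96 to 10.47, against 5.62, 4.67 and 5.27 (4.77 ± 0.77, adjusted p = 4.06e-05), and it was 4.91 higher than in the other tumours. Trim27, a ubiquitin ligase, was 10.32 through 10.83 to 11.07, against 6.46, 4.82 and 6.87 (4.70 ± 0.60, adjusted p = 1.39e-06). Unlike Bcat1, Trim27 did not pass against the other tumours (-0.66, adjusted p = 0.24). Nor did Cherp, an endoplasmic reticulum protein of calcium release (4.60 above pre-B cells, 0.37 above other tumours), or Qrsl1, which charges mitochondrial glutamine tRNA (4.20 and 0.10). Wdr77, the partner of the arginine methyltransferase Prmt5, rose by 4.09 ± 0.51, and Gsto1, a glutathione transferase, by 4.14 ± 0.43. Against the other tumours Wdr77 was higher (2.03) and Gsto1 lower (-0.82, adjusted p = 0.045). The others were Hepacam2 (4.23), Lmo7 (4.16), Ccnd1, Sbf2 (4.06) and Mmachc, a vitamin B12 trafficking protein (4.05). By the rule that chose them, the 6 tumours lay above the 3 pre-B samples for all 12. With the mean of a gene's probe sets the differences were smaller for Bcat1 (2.66), Trim27 (2.13), Wdr77 (2.44), Ccnd1 and Sbf2 (2.37), each still called.

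Of 16 immediate early genes, which are induced within minutes of stimulation, 6 fell (37.5%, against 5.64% of all genes) and 0 rose, with a median of -1.37. Jun was 4.32 through 5.62 to 7.28 in tumours, against 9.64, 9.37 and 9.52 in pre-B cells (-3.99 ± 0.92, adjusted p = 0.00176). Fos, its partner in AP-1, was 3.52 through 6.00 to 6.67, against 10.48, 7.45 and 9.52 (-3.52 ± 0.81, adjusted p = 0.00167). The phosphatase Dusp1 differed by -3.43 ± 0.69 and the RNA-destabilising protein Zfp36 by -2.61 ± 0.45, with no overlap for either. Pro-B samples were themselves spread, from 3.64 to 10.43 for Jun and from 5.86 to 11.04 for Fos. In the NF-kB list of 16 genes, whose median of -0.21 equalled that of all genes, 3 fell (18.8%): the inhibitor Nfkbia (-1.74 ± 0.40, adjusted p = 0.00156) and the chemokines Ccl3 (-2.70 ± 0.68, adjusted p = 0.00378) and Ccl4 (-1.63, adjusted p = 0.00967, a call lost without pre-B replicate 1 (-1.21) and after renewed quantile normalization (-1.09)). The adhesion gene Icam1 was called with all arrays only (1.603, adjusted p = 0.0447).

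Of 23 cytokine and growth factor receptors, 5 fell (21.7%, against 5.64% of all genes) and 0 rose, while 15 were not called even with all arrays. Besides Il2ra these included Il6ra, the interleukin 6 receptor (4.82 through 5.35 to 6.25 in tumours, 8.08, 8.40 and 7.78 in pre-B cells), Csf3r, the granulocyte growth factor receptor, which is also in the granulocyte list (-2.72 ± 0.49, adjusted p = 0.000152), and Ifngr1, an interferon gamma receptor chain (-1.39 ± 0.34, adjusted p = 0.00341). The Ifngr1 call was lost with array weights (-0.83). Of 19 homing and adhesion genes, 4 fell (21.1%) and 1 rose, and 12 were not called with all arrays. The integrin chains Itgal and Itga4 fell (-2.16 ± 0.45 and -1.31 ± 0.36; Itgal was -1.18 without pre-B replicate 2, adjusted p = 0.0319), while Itga6, a laminin receptor chain, rose (1.76 ± 0.41, adjusted p = 0.00189), a call lost with the mean of its probe sets (0.30). Klf2, which controls trafficking, was 6.72 through 6.89 to 7.51 in tumours, against 9.16, 7.75 and 8.96 (-1.62 ± 0.50, adjusted p = 0.0174), though without pre-B replicate 1 or 3 the call was lost (-1.35 and -1.45).

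Of 22 measured B-lineage transcription factors, 3 fell (13.6%, against 5.64% of all genes) and 1 rose (4.55%, against 6.87%). Lef1, which is high in pro-B cells (7.3 to 8.2), fell to 2.79 through 3.27 to 3.85 in tumours, against 5.52, 4.51 and 5.81 in pre-B cells (-1.99 ± 0.42, adjusted p = 0.000806). Runx1 fell by 2.67 on the log2 scale (adjusted p = 0.00116, or -1.58 with the mean of its probe sets). Its pre-B replicates were 7.69, 4.68 and 8.48, with replicate 2 inside the range of the tumours (3.48 to 5.49). Spi1, also the master factor of myeloid cells, fell by 1.46 (adjusted p = 0.00589). Pou2af1, a coactivator of immunoglobulin promoters, rose: 11.09 through 11.26 to 11.98 in tumours, against 10.05, 9.95 and 10.36 (1.23 ± 0.33, adjusted p = 0.00577). Of 18 antigen receptor signalling genes, Cd22, an inhibitory co-receptor, rose to 9.47 through 9.81 to 9.97 in tumours, against 6.93, 6.72 and 6.99 (2.90 ± 0.45, adjusted p = 2.36e-05, or 1.54 with the mean of its probe sets), and the adaptor Dok3 fell (-2.22 ± 0.39, adjusted p = 0.000122). Blnk and Plcg2, which relay the signal of the pre-B receptor, were called with all arrays (2.47 and 1.77) and not without pre-B replicate 2, which was at 4.73 and 4.86. Among 17 mature B-cell genes only Cd22 rose and only Klf2 fell. Shares in each direction were 5.88% for this list and 5.56% for antigen receptor signalling, near the 6.87% and 5.64% of all genes. The complement receptor Cr2 lost its call without that array (-1.63 with it), and Cd37 did not pass (-0.94).

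MHC class II genes showed no call with all arrays: of 10, 0 passed in limma and 1 had an unadjusted p under 0.05 (H2-Ea, H2-Oa and H2-Eb1 were at -0.70, 0.97 and -0.64), and the protease Ctss passed only without pre-B replicate 2 (1.39, adjusted p = 0.0271). Of 10 germinal centre genes 1 rose (Pou2af1) and 2 fell, namely Lmo2 (-2.76 ± 0.51, adjusted p = 0.000177) and Bcl6, the repressor of that stage, which was 4.78 through 5.80 to 6.44 in tumours, against 9.28, 4.74 and 9.46 in pre-B cells (-2.21 ± 0.74, adjusted p = 0.0263). The Bcl6 difference was -3.75 without pre-B replicate 2 (adjusted p = 0.000164), and the call was lost without pre-B replicate 1 (-1.48) or 3 (-1.39), on the 9 compared arrays, after renewed quantile normalization and with the 3' minus 5' covariate. Mybl1 was low in both groups (2.37 to 2.96 in tumours, 3.66 to 5.06 in pre-B cells). Of 15 Bcl2 family genes 1 rose and 1 fell (6.67% each, near the shares of all genes). Bid, a killer protein, rose (2.66 ± 0.54, adjusted p = 0.00051, or 1.38 with the mean of its probe sets) and Bcl2l1, which encodes Bcl-xL, fell (-1.79 ± 0.47, adjusted p = 0.00542). Bcl2l1 was -2.92 without pre-B replicate 2, and its call was lost without pre-B replicate 1 (-1.22) or 3 (-1.23) and on the 9 compared arrays. The survival gene Mcl1 was 11.11 to 11.56 in tumours and 9.23 to 10.54 in pre-B cells, called with all arrays only (1.49, adjusted p = 0.00647). Bok did not pass (-0.83). In Polycomb repressive complex 2, 1 of 11 genes rose (9.09%, against 6.87% of all genes): the histone-binding protein Rbbp7 (1.39 ± 0.37, adjusted p = 0.00577). Aebp2 was called with all arrays only (2.81), and Suz12 and Mtf2 did not pass (0.73 and 1.00). Among 13 interferon-stimulated genes (7.69% called in each direction) Irgm1, a GTPase, rose (2.06 ± 0.51, adjusted p = 0.00334), Rsad2 fell, and Bst2 and Gbp2 did not pass (-1.45 and 1.16).

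**Figure D4:**
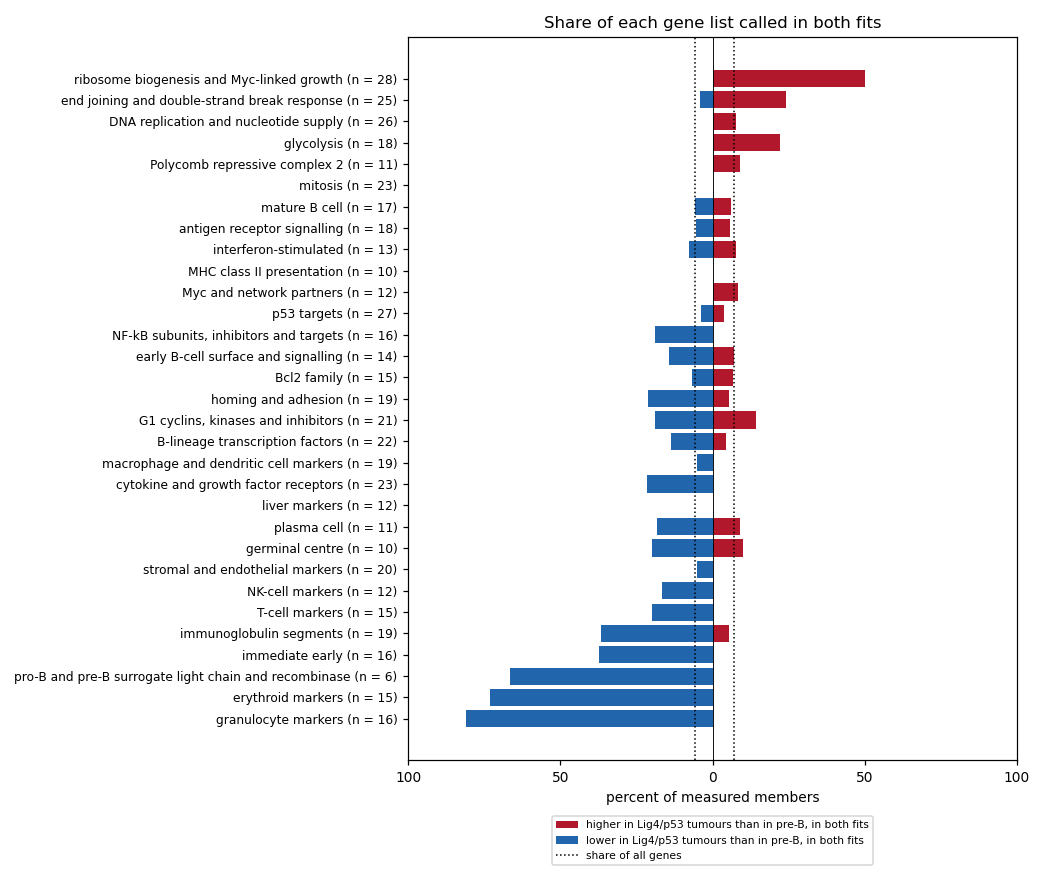
Bars give the percent of measured members of each gene list that were called in both fits as higher (red, right) or lower (blue, left) in Lig4/p53 tumours than in pre-B cells, ordered by median difference; dotted lines mark the shares of all genes, 6.87% and 5.64%. The growth list reaches 50% on the right, and the granulocyte and erythroid lists reach 81.2% and 73.3% on the left.

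Genes of red cell precursors and granulocytes made up 10 of the 12 largest decreases outside the antigen receptor genes. Of 15 measured erythroid markers 11 fell and 0 rose (73.3%, median -3.62), and of 16 granulocyte markers 13 fell and 0 rose (81.2%, median -4.34). The log2 of the summed intensity of the erythroid list was 11.44 to 11.92 in tumours, against 13.90, 14.09 and 13.79 in pre-B samples, and that of the granulocyte list was 10.52 to 12.66, against 15.14, 14.04 and 15.12. The erythroid sum includes Hba-a1 and Tfrc. The samples sorted as B220-positive pre-B cells thus carried more RNA of most measured markers of both lineages than the tumours. In these bulk samples fewer cells of a type and less RNA per cell cannot be told apart, and the part of other cells in the remaining decreases was not tested.

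Among single genes, Slc4a1, the band 3 anion exchanger of red cells, was 2.70 through 3.53 to 4.11 in tumours, against 11.62, 12.12 and 11.58 in pre-B samples (-8.27 ± 0.90, adjusted p = 1.27e-07, or -5.44 with the mean of its probe sets). Alas2, the first enzyme of heme synthesis in red cells, was 2.97 through 3.23 to 3.38, against 10.79, 10.01 and 10.57 (-7.26 ± 0.72, adjusted p = 2.54e-08). Pro-B samples ranged from 6.2 to 9.7 for Slc4a1 and from 3.8 to 8.7 for Alas2. The other erythroid genes among the 12 largest decreases were Car2 (-6.83), Hbb-b2 (-6.81), Aqp1 (-5.49) and Rhd (-5.49). Camp, an antimicrobial peptide of neutrophils, was 3.55 through 4.54 to 6.28 in tumours, against 11.30, 10.68 and 11.58 (-6.44 ± 0.91, adjusted p = 5.82e-06), and pro-B samples held 10.4 to 11.3. Cd177 (-5.51), and the neutrophil proteins Pglyrp1 (-5.84) and Hp (-5.45), followed the same pattern, as did Ltf (-4.999) and Mmp9 (-4.48) in the granulocyte list. Tent5c, a poly(A) polymerase, and Rsad2, an antiviral protein, completed the 12. Tent5c was 3.21 through 3.59 to 3.82 in tumours, against 11.52, 8.94 and 11.10 (-6.95 ± 0.72, adjusted p = 5.74e-08). Rsad2 was 3.51 through 3.98 to 4.91, against 9.69, 10.11 and 9.62 (-5.71 ± 0.55, adjusted p = 2.02e-08, or -3.73 with the mean of its probe sets).

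Smaller shares of the markers of other cells were called. Of 12 NK-cell markers 2 fell (16.7%, against 5.64% of all genes), the granule protein Nkg7 (-3.51 ± 0.52, adjusted p = 1.36e-05) and perforin, Prf1 (-1.37, adjusted p = 0.0118), while Xcl1 and Ncr1 were called with all arrays only. Of 15 T-cell markers 3 fell: Cd3e (3.09 through 3.36 to 4.22 in tumours, 5.56, 5.22 and 4.86 in pre-B samples), Cd247 and Cd3d (-1.37 and -1.80), and Bcl11b did not pass (-0.84). Without pre-B replicate 2 the differences were -2.10 for Prf1, -2.29 for Cd247 and -3.20 for Cd3d. The 3 calls were lost without pre-B replicate 1 (-1.01, -1.18 and -1.09), without pre-B replicate 3 (-0.63 for Cd247 and -1.09 for Cd3d), on the 9 compared arrays and with the 3' minus 5' covariate. Prf1 also lost its call with the mean of its probe sets (-0.91), Cd247 without tumour replicate 6 (-1.24), Cd3d without tumour replicate 5 (-1.65), and Cd247 and Cd3d after renewed quantile normalization. The summed T-cell level was 8.64 to 10.36 in tumours, against 9.76, 9.48 and 9.79. Of 19 macrophage and dendritic markers only Lyz2 fell (5.26%, near the 5.64% of all genes). It was 7.38 through 9.31 to 10.45 in tumours and 12.04, 10.47 and 11.68 in pre-B samples. C1qa was called with all arrays only, and Clec7a and Adgre1 did not pass. Among 20 stromal and endothelial markers only Bgn fell (5.0% of the list). It differed by -1.48 ± 0.34 (adjusted p = 0.00197), or -0.93 with the mean of its probe sets, and Pdgfrb, Acta2 and Cdh5 were called with all arrays only. None of 12 liver markers was called in either direction by limma, and 0 had an unadjusted p under 0.05 (Ahsg, Apoa2, Fga and Fgg all at adjusted p of 0.324 or more). Of 11 plasma cell genes 2 fell (18.2%, against 5.64% of all genes) and 1 rose (9.09%, against 6.87%). The IgA and IgM linker Jchain was 3.24 through 3.85 to 5.49 in tumours, against 8.52, 8.48 and 8.73 in pre-B samples (-4.48 ± 0.77, adjusted p = 7.92e-05), and Sdc1, which encodes CD138, fell by 4.27 (adjusted p = 0.00123; -2.51 with the mean of its probe sets). Derl3, a factor of protein quality control, rose (2.14 ± 0.51, adjusted p = 0.00235), and Slamf7 was called with all arrays only (1.40). The sort markers Ptprc and Spn, which encode B220 and CD43, did not pass (1.20 and -0.51).

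**Figure D5:**
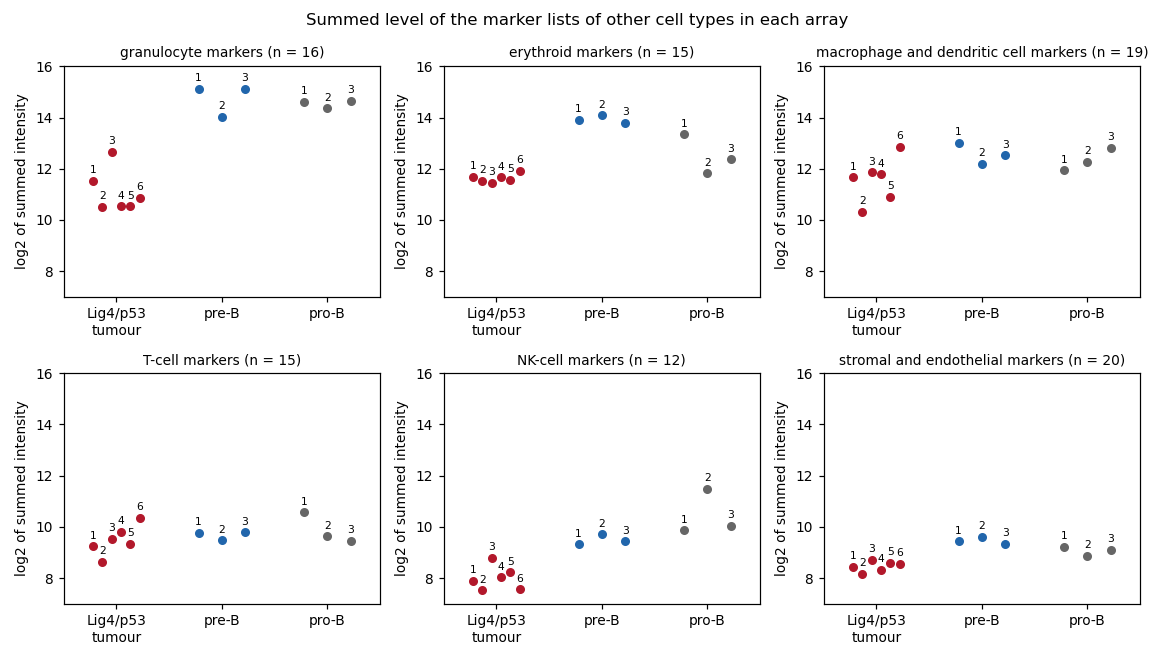
Log2 of the summed intensity of 6 lists of markers of other cell types in each array, for Lig4/p53 tumours (red), pre-B (blue) and pro-B (grey) samples, numbered by replicate. The granulocyte and erythroid sums of all 6 tumours lie below those of all 3 pre-B samples, while the T-cell and macrophage sums overlap.

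The 6 tumours were not alike in every gene. Among genes with a mean over 7, Eif2s3y on the Y chromosome had the largest SD (2.99): it was 9.74 to 10.55 in 5 tumours and 2.91 in tumour replicate 6, whose Xist was 8.45, against 2.46 to 4.22 in the others. Kdm5d and Uty, also Y-linked, were lowest in the same tumour (3.06 and 2.46). Malat1, an abundant nuclear RNA, fell in the comparison with pre-B cells (-3.24 ± 0.56, adjusted p = 7.8e-05) and was lowest in tumour replicate 3 (5.97, against 8.82 to 9.86 in the others). Erdr1 was lowest there too (6.59, against 10.34 to 11.40). Reln, which encodes an extracellular glycoprotein, rose (3.15 ± 0.79, adjusted p = 0.00405) and ran from 8.18 to 10.07 in 5 tumours, with 6.12 in tumour replicate 2. That tumour was also lowest for Il7r, Rag1, Rag2, Igll1 and Basp1 (5.20, against 6.57 to 9.77). The light chain segment Iglv1 was 8.30 to 9.70 in the other tumours and 5.70 in tumour replicate 2.

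Tumour replicate 6 had the lowest Myc and Pvt1 and the highest Ccnd2, Mycn and Pou2af1 of the 6. It was also lowest for Fam91a1 (4.59, against 6.94 to 8.33), Nsmce2 (6.62, against 7.82 to 9.84) and Trib1 (3.65, against 4.28 to 6.64), which lie on chromosome 15 as Myc does. Other genes of chromosome 15 did not follow: Basp1 was highest in this tumour (9.77), and Il7r (8.93) lay inside the range of the other tumours. Gm6958 split the tumours into 2 with 6.62 and 6.96 and 4 with 9.83 to 10.72, against 6.56 to 7.44 in pre-B cells. Wfdc21 ranged from 5.90 to 9.48 in tumours, against 9.64, 5.25 and 9.78 in pre-B cells.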

How the data were processed

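Expression was measured in 35 mouse samples. Per the labels' protocols, total RNA (Tripure isolation) was amplified by the Ovation kit of NuGen, version 2, and biotinylated before hybridization. Values deposited by the authors are log2 intensities per probe set, made with RMA per the submitters' processing notes; which arrays were normalized together is not given in the sources used here, and the files hold no detection calls. Of 22690 probe sets, 64 were controls, 20393 could be used because the platform annotation gave them exactly 1 gene symbol, and 691 with several and 1542 without any could not. Where a gene had several probe sets (4958 genes), the one of highest mean over all arrays stood for it.

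Groups came from the labels. The difference between Lig4/p53 tumours and pre-B cells was a contrast in limma (lmFit, eBayes) fitted on all 35 arrays in 9 groups, and a second contrast set these tumours against the mean of the group means of the tumours labelled Bcl6 and Myc/Bcl6. Adjusted p-values are Benjamini-Hochberg values over all 12394 genes, with calls under 0.05. Numbers written as ± are standard errors of a log2 difference from limma, and n is 6 and 3. Values per group are the lowest, median and highest of the tumours and each pre-B sample in replicate order. The number of arrays limits the precision. The fit was tested on simulated data.

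The members, the 33 gene lists and the tests were chosen with earlier results of these data known. Named genes were the 12 largest increases and 12 largest decreases called in both fits without overlap between groups (sort markers and segments of the antigen receptors left out), the markers Myc, Sox4, Vpreb3 and Il7r, the members of each list with the smallest p (at most 4), every measured member of lists of up to 7, up to 4 immunoglobulin segments, and the 10 genes of largest SD among tumours with a mean over 7. The neighbours of Myc and 16 others (Mycn, Cdk4, Nop2, Hspd1, Cd79a, Cd79b, Pax5, Ebf1, Cdkn1a, Ccnd3, Cdkn2c, Rb1, Prkdc, Igha, Ighv14-2 and Iglv1) were named after their values were seen. Hba-a1 and Tfrc were also named then, and were not among the genes tested for outliers.

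Alternatives were the mean of a gene's probe sets, array weights, a trended and robust prior, equal array medians, a repeated quantile normalization, a filter on dim genes, only the 9 compared arrays, a replicate block, a covariate for 18S rRNA or the 3' minus 5' difference, and leaving out arrays; 2 combinations on the 9 arrays were chosen after seeing the data. R 4.3.3 with limma 3.58.1 and Python 3.11.15 with pandas 2.3.3 were used.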

Additional observations from a re-analysis of the deposited data

Results flagged for a closer look

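In 30 of the 176 genes tested, 1 of the 6 tumours stood apart from the other 5, with a gap to its nearest neighbour that exceeded 0.625 of the whole range of the tumours (Dixon's critical value at 95%). Chance alone gives about 1 in 20 groups, but some of these genes were named for their spread among the same tumours or after their values were seen, so their share cannot be set against that figure. Tumour replicate 6 was the one apart in 14 of the 30 genes, tumour replicate 3 in 7, tumour replicate 2 in 6 and tumour replicate 5 in 3.

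Tumour replicate 6 was lowest for the sex-linked genes Eif2s3y (gap over range 0.894), Kdm5d (0.885) and Uty (0.627), and highest for Xist (0.707). It was lowest for Xrcc5 (0.839), Smyd2 (0.676), Srm (0.660) and Fam91a1 (0.628), although its Xrcc5, Smyd2 and Srm still exceeded every pre-B sample. It was highest for Mycn (0.825), Pou2af1 (0.776), H2-Ea (0.680), Mmp9 (0.670), Gbp2 (0.639) and Runx1 (0.626).

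Tumour replicate 2 was lowest for the early B-cell genes Igll1 (0.791), Rag2 (0.681) and Rag1 (0.627), for the light chain segment Iglv1 (0.650) and for Sdc1 (0.644), and highest for Cdh5 (0.661). Tumour replicate 3 was lowest for Ebf1 (0.894), Suz12 (0.849), Erdr1 (0.781), Malat1 (0.733), Mtf2 (0.712) and Aqp1 (0.634), and highest for the neutrophil antigen Cd177 (0.643). Its granulocyte sum was also the highest of the tumours (12.66). Tumour replicate 5 was highest for the liver genes Ahsg (0.714) and Fgg (0.711), at low levels of 4.48 and 3.91, and lowest for Irgm1 (0.632).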

How the results depend on the processing

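Against pre-B cells 3366 genes were called. Leaving out 1 array at a time gave 1945 to 4484 calls, the lowest without pre-B replicate 2, and a covariate for 18S rRNA, which separates the groups, left 3. The other alternatives gave 2446 to 3834. A filter on dim genes gave 2528 calls, 71.7% of them higher, against 54.2%, since it removes low genes. Against the other tumours 5988 genes were called, 3635 after renewed quantile normalization, 3874 of the 7228 genes left by the filter on dim genes, 7004 with array weights, 7086 without the 3 arrays of narrowest spread, and 5007 to 6207 with 1 array left out. Whether the replicate numbers pair the samples could not be told. Same-numbered deviations correlated at 0.28, -0.15 and 0.11, but each tumour had similar values with pre-B replicates 1 and 3 and the opposite sign with replicate 2. For tumour replicate 1 these were 0.28, 0.27 and -0.30, so the check mainly reads the array that stood apart. With the replicate block 2609 and 5419 genes were called. Of the 103 named genes called in both fits, 7 turned in sign with the 18S covariate, and 102 lost their call. Among genes called with all arrays it gave Lef1 0.06, Cr2 0.13, Irgm1 -0.31, Prf1 1.38, Cd247 0.44, Cd3d 0.29, Pdgfrb 0.15, Gm6958 -0.72, Pvt1 -0.19, Cd79a 0.09 and Prkdc -0.63, none of them called; the cause was not tested. Ighm was -2.32 with the mean of its probe sets. The other alternatives and omissions lost at most 8 of the 103 calls each and turned none. With 2 pre-B arrays left, and with no detection calls on the arrays, low levels have no reliable order.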
